A study of Rattus norvegicus with 20 samples.

Results

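The immediate early and Klf2/Klf4 response genes are 10 genes that were taken by name from the 39747 genes of the count table: Fos, Fosb, Junb, Egr1, Ier2, Dusp1, Nr4a1, Btg2, Klf2, and Klf4. No measured value decided which rows were taken, but the list was chosen with earlier results of these data known. All 10 were found in the count table. They were followed through 20 libraries of dorsal root ganglia (DRG), the clusters of sensory nerve cell bodies beside the spinal cord, from 14 female WT Sprague-Dawley rats. The rats ate a soy oil diet (SOD) or a fish oil diet (FOD) from 4 weeks before surgery. Surgery was either a chronic constriction injury (CCI), in which ligatures were placed loosely on the sciatic nerve of the left leg, or a sham operation (CT), in which that nerve was exposed and not tied. The left DRG, each from another rat, gave 4 libraries of SOD-CT and 3 of SOD-CCI rats, and 3 of FOD-CT and 4 of FOD-CCI rats. The right, contralateral DRG, on the side without ligatures, gave 3 libraries from the SOD-CCI rats and 3 from the FOD-CCI rats. The study places collection 1 week after surgery, while its methods keep the rats on the diets for 4 weeks after surgery, so the length of the diet at collection is not certain. The rats were perfused with saline before the ganglia were frozen.

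Immediate early genes are switched on within minutes of a stimulus from factors that are already present in the cell, without new protein synthesis, and their transcripts are short-lived. Calcium and cyclic AMP act through CREB at the cyclic AMP response element (CRE), and growth factor and MAP kinase signals act through serum response factor at the CArG box. Fos, FosB, and JunB are subunits of the AP-1 transcription factor. Egr1 is a zinc finger transcription factor and Nr4a1 is an orphan nuclear receptor. Ier2 is a small nuclear regulator, Dusp1 is a phosphatase that switches off MAP kinases, and Btg2 restrains cell proliferation and promotes mRNA decay, so several products of the response also limit it. Klf2 and Klf4 are zinc finger factors that are well known in endothelial cells, where flow raises them, and Klf4 is also known as an immediate early gene in other cells. In neurons of the central nervous system, Fos and Egr1 are classical readouts of activity. In sensory ganglia, Jun and Atf3 are classical readouts of axon injury.

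The promoter sequences below are shown because each holds the CRE described above or its half-site. Whether cyclic AMP or calcium acted through them here was not tested. Of the 10 members, 8 had a RefSeq promoter (assembly GRCr8), and the 250 bases before the start of each gene were searched on both strands. Fos and Klf2 had no entry. The full CRE, TGACGTCA, stood in 3 of the 8 (Ier2, Dusp1, and Btg2), against 1.59% of 33469 promoters of the same length. The CRE half-site, TGACG on the one strand or CGTCA on the other, stood in 6 of the 8 (Junb, Egr1, Ier2, Dusp1, Nr4a1, and Btg2), against 18.2% of all promoters, and every full CRE contains it on both strands. The AP-1 site TGANTCA stood in 0 of the 8 (6.34% of all promoters), and the CArG box in 1 of the 8, Egr1 (1.5% of all promoters). A match says only that these letters are present. Below, capitals mark the CRE and its half-sites in the promoters of Ier2 (chr19:40399123-40399372, plus strand), Dusp1 (chr10:17184603-17184852, plus strand), Nr4a1 (chr7:134259888-134260137, plus strand), and Btg2 (chr13:48087691-48087940, minus strand), each written 5′ to 3′ towards the gene.
Ier2: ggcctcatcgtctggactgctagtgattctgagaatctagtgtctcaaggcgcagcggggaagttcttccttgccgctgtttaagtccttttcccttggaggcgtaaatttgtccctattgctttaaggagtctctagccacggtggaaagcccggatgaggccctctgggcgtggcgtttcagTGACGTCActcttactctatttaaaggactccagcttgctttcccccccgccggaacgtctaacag
Dusp1: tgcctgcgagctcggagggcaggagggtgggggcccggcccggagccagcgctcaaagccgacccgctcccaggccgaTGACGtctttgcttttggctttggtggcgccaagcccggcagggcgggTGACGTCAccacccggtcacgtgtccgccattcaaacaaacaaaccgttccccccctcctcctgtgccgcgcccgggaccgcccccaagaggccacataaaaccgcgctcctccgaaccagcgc
Nr4a1: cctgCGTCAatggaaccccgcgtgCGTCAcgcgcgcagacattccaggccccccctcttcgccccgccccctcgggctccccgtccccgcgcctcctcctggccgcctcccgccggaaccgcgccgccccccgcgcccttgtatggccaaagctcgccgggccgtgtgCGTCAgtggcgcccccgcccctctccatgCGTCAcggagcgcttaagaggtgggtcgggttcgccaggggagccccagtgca
Btg2: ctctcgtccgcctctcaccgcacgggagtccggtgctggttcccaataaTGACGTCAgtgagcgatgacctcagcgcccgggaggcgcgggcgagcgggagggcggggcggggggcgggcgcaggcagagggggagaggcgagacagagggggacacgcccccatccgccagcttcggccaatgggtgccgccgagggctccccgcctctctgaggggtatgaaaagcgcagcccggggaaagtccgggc
The CRE began 66 bases before the start in Ier2, 124 bases before it in Dusp1, and 201 bases before it in Btg2. In Nr4a1 there were 4 half-sites and no full CRE, the nearest of them beginning 53 bases before the start.

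Total counts ran from 22547190 to 54437581 per library. Values below are CPM, the count divided by a library size that was scaled by the trimmed mean of M values (TMM), unless another unit is named. Several libraries stood apart. The library labelled FOD-CCI replicate 1 went against its injury label: Atf3 was at 3.24 CPM there, against 202, 514, and 318 in FOD-CCI replicates 2 to 4, from 243 to 331 in SOD-CCI, and from 12.5 to 48.5 in the 7 sham libraries. Jun was at 100 CPM in it, against 204, 502, and 381 in the other FOD-CCI libraries, and Socs3 was at 1.95 CPM, against 7.41, 24.4, and 16.5. The contralateral FOD-CCI library of the same rat had Scn10a and Isl1, markers of sensory neurons, at 0 counts, which allows up to 0.124 CPM, whereas the other 19 libraries held at least 45.7 CPM of Scn10a and 8.79 CPM of Isl1. Both of these libraries and FOD-CT replicate 1 also held spinal cord transcripts, with a mean of the spinal cord markers of 7.43, 7.63, and 7.30 log2 CPM against at most 1.56 elsewhere. Results that rest on these 3 libraries are therefore given with and without them. In SOD-CT replicate 1, 10.8% of the counts came from skeletal muscle markers, and 2.31% in FOD-CT replicate 2. The sides of a rat also differed in muscle, with a mean of its markers of 7.35 log2 CPM right and −1.19 left in the second SOD-CCI rat, and 8.93 right and −1.36 left in the third FOD-CCI rat. In whole ganglia, fewer cells of a type and less RNA per cell cannot be told apart.

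By FPKM, which divides by gene length, the members covered a wide range of levels. Median FPKM over the 20 libraries was 19.2 for Nr4a1, 14.9 for Junb, 14 for Dusp1, 11.5 for Klf2, 8.33 for Ier2, 5.34 for Fos, 4.30 for Btg2, 3.89 for Egr1, 3.85 for Klf4, and 0.223 for Fosb. The ranges of all neighbours in this order overlapped over the libraries. Fosb, from 0 to 0.709 FPKM, lay below the lowest library of every other member except Klf4, which reached down to 0.382. Fosb had 0 counts in 4 libraries and under 10 in 5, so it did not enter the tests, and the 9 other members did.

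Among the AP-1 subunits, Fos was at 8.01, 5.32, 6.74, and 3.46 CPM in SOD-CT replicates 1 to 4 and at 11.9, 12.6, and 8.75 in SOD-CCI. It was at 16.1, 7.96, and 3.74 CPM in FOD-CT and at 11.4, 10.7, 21.5, and 13.2 in FOD-CCI. The 3 SOD-CCI libraries all lay above the 4 SOD-CT libraries, whereas FOD-CT replicate 1, one of the libraries with spinal cord transcripts, lay inside the FOD-CCI range. Contralateral Fos was at 3.47, 5.61, and 5.54 CPM in SOD-CCI rats and at 21.7, 2.63, and 9.40 in FOD-CCI rats, where the high value belonged to the library without sensory neuron markers. Junb, the most abundant AP-1 member of the 3 by FPKM, was at 19.7, 28.2, 33.9, and 22.0 CPM in SOD-CT and at 43.4, 40.9, and 38.4 in SOD-CCI. In FOD-CT it was at 25.9, 34.1, and 24.9 CPM and in FOD-CCI at 24.7, 41.7, 58.5, and 44.3. The groups did not overlap under SOD, and under FOD the lowest FOD-CCI value belonged to the library that went against its injury label. Contralateral Junb was at 21.8, 25.4, and 20.8 CPM under SOD and at 23.2, 24.5, and 34.4 under FOD. Fosb was at 0, 0.0818, 1.98, and 1.04 CPM in SOD-CT, at 0.611, 1.62, and 0.950 in SOD-CCI, at 1.89, 0.486, and 1.45 in FOD-CT, and at 1.10, 0, 0.433, and 0 in FOD-CCI, and on the contralateral side at 0.528, 0.858, and 0.345 under SOD and 1.69, 2.29, and 0 under FOD. Its 4 libraries at 0 (SOD-CT replicate 1, FOD-CCI replicates 2 and 4, and contralateral FOD-CCI replicate 3) allow up to 0.200, 0.101, 0.0982, and 0.117 CPM.

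**Figure D1:**
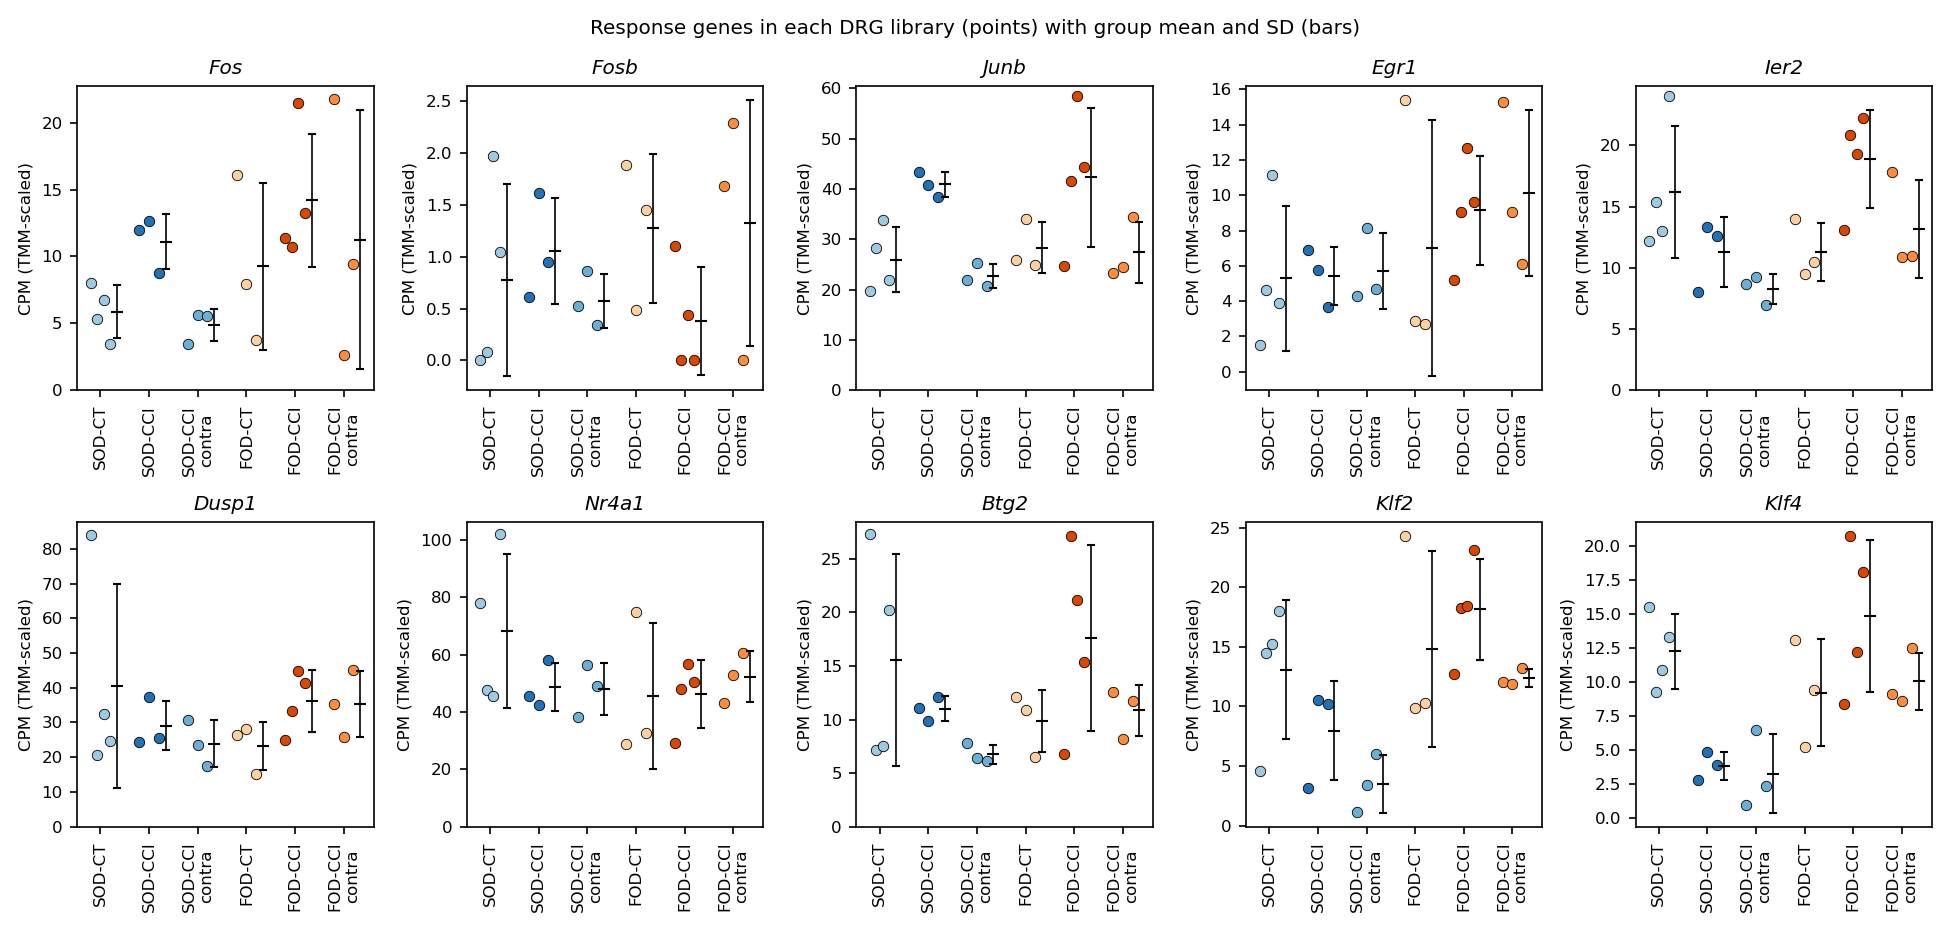
CPM of each of the 10 members (vertical axes, 1 panel per gene) in the 6 groups, with a point per library and the group mean as a line. The 3 SOD-CCI libraries lie at or below 4.82 CPM of Klf4, below every SOD-CT and FOD-CCI library, and at or above 38.4 CPM of Junb, above every SOD-CT library.

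Egr1 and Nr4a1, the other transcription factors of the response, showed no separation between groups. Egr1 was at 1.53, 4.62, 11.2, and 3.91 CPM in SOD-CT, at 6.90, 5.76, and 3.67 in SOD-CCI, at 15.4, 2.89, and 2.72 in FOD-CT, and at 5.22, 9.02, 12.7, and 9.62 in FOD-CCI. Contralateral Egr1 was at 4.30, 8.15, and 4.66 CPM under SOD and at 15.3, 9.065, and 6.09 under FOD. Its 2 highest values over all libraries, 15.4 CPM in FOD-CT replicate 1 and 15.3 CPM in contralateral FOD-CCI replicate 1, were in libraries with spinal cord transcripts, and the part of those transcripts in them was not tested. Nr4a1 was at 77.8, 47.7, 45.6, and 102 CPM in SOD-CT, at 45.7, 42.4, and 58.1 in SOD-CCI, at 29.0, 74.9, and 32.8 in FOD-CT, and at 29.3, 48.1, 56.9, and 50.5 in FOD-CCI. Its groups overlapped in every comparison of groups, and contralateral values were 38.3, 56.35, and 49.1 CPM under SOD and 43.1, 53.02, and 60.75 under FOD.

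The regulators that act on signalling, growth, and transcription were Ier2, Dusp1, and Btg2. Ier2 was at 12.2, 15.4, 13.03, and 24.0 CPM in SOD-CT, at 7.98, 13.3, and 12.6 in SOD-CCI, at 13.9, 9.51, and 10.4 in FOD-CT, and at 13.1, 20.9, 19.3, and 22.2 in FOD-CCI. FOD-CCI replicates 2 to 4 lay above every SOD-CCI and FOD-CT library, and the library labelled FOD-CCI replicate 1 lay within them. Contralateral Ier2 was at 8.64, 9.28, and 6.94 CPM under SOD, below the 17.8, 10.8, and 10.9 CPM under FOD. Dusp1 was at 83.9, 20.7, 32.6, and 24.6 CPM in SOD-CT, at 24.3, 37.2, and 25.6 in SOD-CCI, at 26.3, 28.1, and 15.3 in FOD-CT, and at 25.0, 33.4, 44.9, and 41.3 in FOD-CCI. Its contralateral values were 30.8, 23.5, and 17.4 CPM under SOD and 35.2, 25.8, and 44.99 under FOD. The high value of 83.9 was in the library with 10.8% muscle counts, and the other 19 libraries ran from 15.3 to 44.99 CPM. Btg2 was at 27.3, 7.16, 7.55, and 20.2 CPM in SOD-CT, at 11.1, 9.86, and 12.1 in SOD-CCI, at 12.1, 10.9, and 6.54 in FOD-CT, and at 6.77, 27.1, 21.2, and 15.4 in FOD-CCI. SOD-CT spanned nearly the whole range of Btg2, so the left groups overlapped widely, while on the contralateral side 7.77, 6.37, and 6.09 CPM under SOD lay below 12.6, 8.18, and 11.8 under FOD.

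Klf4 was low in both DRG of the SOD-CCI rats. It was at 15.5, 9.24, 10.9, and 13.3 CPM in SOD-CT and at 2.77, 4.82, and 3.90 in SOD-CCI. In FOD-CT it was at 13.1, 5.196, and 9.40 CPM and in FOD-CCI at 8.38, 20.7, 12.2, and 18.1. Contralateral Klf4 was at 0.943, 6.503, and 2.32 CPM in SOD-CCI rats and at 9.10, 8.62, and 12.5 in FOD-CCI rats. All 6 libraries of the SOD-CCI rats were at or below 6.503 CPM, and of the other 14 only FOD-CT replicate 2, at 5.196, lay within their range. Klf2 was at 4.60, 14.4, 15.2, and 18.03 CPM in SOD-CT, at 3.16, 10.5, and 10.2 in SOD-CCI, at 24.3, 9.88, and 10.2 in FOD-CT, and at 12.7, 18.3, 18.4, and 23.1 in FOD-CCI. Its contralateral values were 1.09, 3.43, and 5.97 CPM in SOD-CCI rats, the lowest group, and 12.1, 11.8, and 13.2 in FOD-CCI rats.

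Each comparison was tested on the counts with the quasi-likelihood F test of edgeR, with p adjusted over all genes tested, and calls needed an adjusted p no higher than 0.1 together with a change of 1.2-fold or more. By edgeR 0 of the 9 members tested were called in any of the 11 comparisons. The share of all genes called was 0.0% in 9 of them, 0.131% for left against contralateral DRG in SOD-CCI rats, and 0.0137% for the same comparison in FOD-CCI rats. DESeq2 called Klf4 in SOD-CCI against SOD-CT and in FOD-CCI against SOD-CCI, and Junb and Klf2 in left against contralateral DRG of SOD-CCI rats, and no other member in any comparison. The counts below at an unadjusted p of at most 0.05 are descriptions, set beside the same share of all genes.

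Injury under the soy oil diet left the members split. In SOD-CCI against SOD-CT, Klf4 was lower (3.83 ± 1.03 against 12.3 ± 2.76 CPM, SD, n = 3 and 4) by a log2 fold change of −1.67 (SE 0.41, adjusted p = 0.266 by edgeR). Junb was higher (40.9 ± 2.48 against 25.9 ± 6.398 CPM) by 0.67 (SE 0.27, adjusted p = 0.320 by edgeR). These 2 members were the only ones at an unadjusted p of at most 0.05, against 13.8% of all genes. Klf4 alone was left (1 in place of 2) without SOD-CT replicate 4, SOD-CCI replicate 1, or SOD-CCI replicate 2, and without SOD-CT replicate 1 it was Klf4, Klf2, and Fos, with Junb no longer among them. The groups did not overlap for 3 of 9 members (Fos and Junb higher, Klf4 lower), against 17.6% of all genes. In all, 3 of 9 members were higher, and their median log2 fold change was −0.48, with −0.01 over all genes. Without the 3 libraries with spinal cord transcripts, none of which is in these 2 groups but which share the estimate of the spread, Klf4 was called (adjusted p = 0.0944 by edgeR, from 0.0166 to 0.647 over 22 alternatives). Endothelial markers were lower for 9 of 10 genes, with a median of −0.63 and 0 called, and a mean over the list from 3.71 to 4.28 log2 CPM in SOD-CCI against 4.40 to 4.71 in SOD-CT. Skeletal muscle markers were lower for 4 of 4 genes tested (median −10.2, all 4 at an unadjusted p of at most 0.05), red cell markers for 6 of 6 (median −3.12), and macrophage markers were higher for 8 of 9 (median 0.77). The part of these cell types in the members was not tested by a model, and Klf4 relative to these markers is given further on.

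Injury under the fish oil diet had all 9 members higher in FOD-CCI than in FOD-CT, with a median log2 fold change of 0.61 against 0.01 over all genes. Only Ier2 was at an unadjusted p of at most 0.05 (18.9 ± 4.03 against 11.3 ± 2.34 CPM, n = 4 and 3, log2 fold change 0.74, SE 0.32, adjusted p = 1.00 by edgeR), against 4.52% of all genes. Junb was next (42.3 ± 13.8 against 28.3 ± 5.03 CPM, 0.57, SE 0.27, adjusted p = 1.00 by edgeR). The groups overlapped for all 9 members, where they did not for 4.59% of all genes. With the replicate number as a block, since FOD-CT and FOD-CCI libraries of the same number deviated together, 0 members were at an unadjusted p of at most 0.05. The libraries numbered 1 in both groups held spinal cord transcripts.

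This comparison depended on single libraries. It gave 0 members at an unadjusted p of at most 0.05 without FOD-CT replicate 3 or FOD-CCI replicate 2, 3, or 4, with 7 or 8 of 9 higher, 2 or 3 without SOD-CT replicate 3 or 1, and 4 without FOD-CT replicate 1 (Ier2, Fos, Klf4, and Egr1). Without the library labelled FOD-CCI replicate 1, 4 members were at an unadjusted p of at most 0.05 (Junb, Ier2, Btg2, and Klf4), against 10.3% of all genes. Without the 3 libraries with spinal cord transcripts, which removes FOD-CT replicate 1 as well, 6 were (Ier2, Klf4, Fos, Egr1, Junb, and Btg2), against 8.03% of all genes, and the groups did not overlap for 8 of 9, all but Nr4a1, against 28.7% of all genes. All but Nr4a1 were then higher in FOD-CCI, 8 of 9, with a median of 1.06. Fos was then higher by a log2 fold change of 1.36 (SE 0.48) and Egr1 by 1.89 (SE 0.68), at adjusted p = 0.435 and 0.441 by edgeR, the lowest of 22 alternatives for each and up to 1.00 in others, where with all libraries Fos was higher by 0.61 (SE 0.45). The reduced comparison has 3 FOD-CCI and 2 FOD-CT libraries. Over all libraries, macrophage markers were higher for 9 of 9 genes (median 1.48) and red cell markers for 6 of 6 (median 3.51), with 0 called in either list, while skeletal muscle markers were lower for 4 of 4 genes tested (median −7.28), and their part in the members' levels was not tested.

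**Figure D2:**
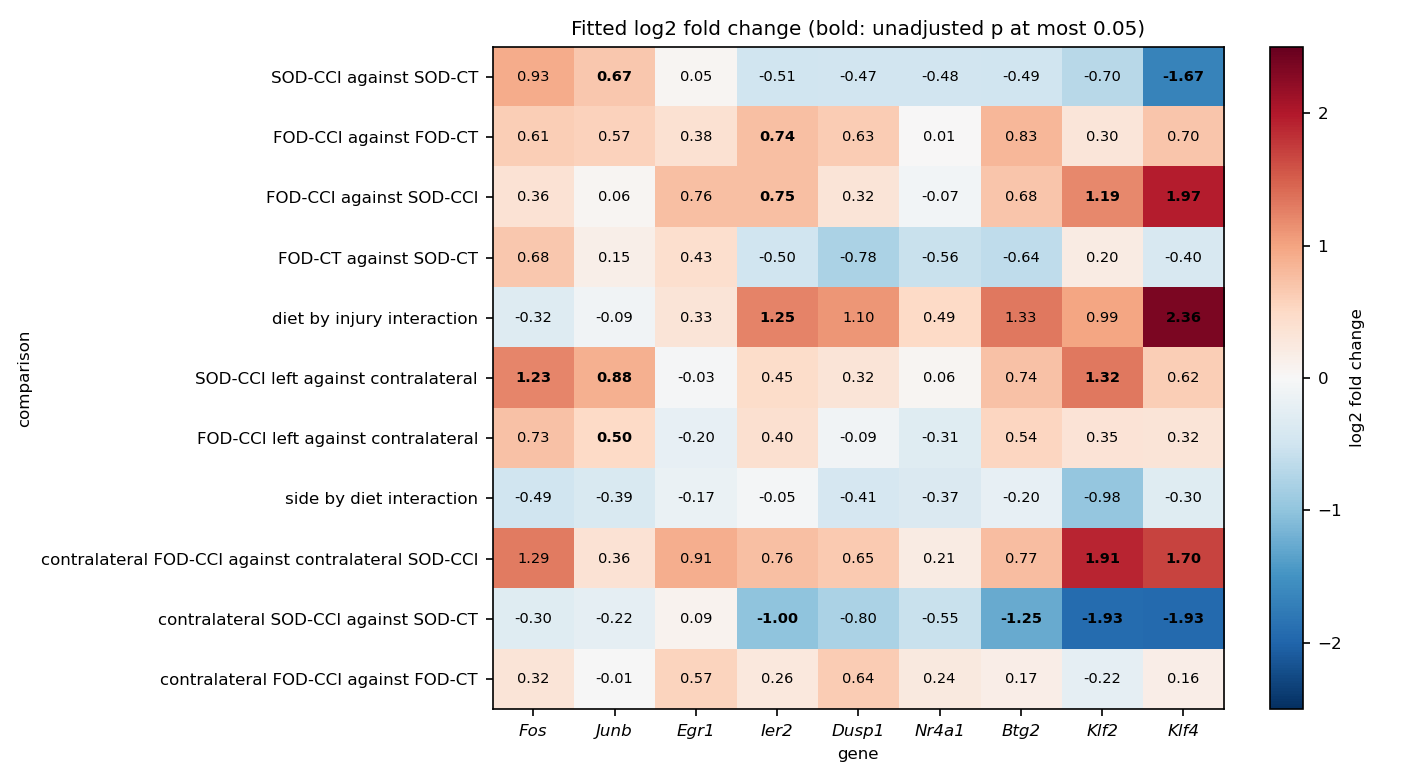
Log2 fold change of the 9 tested members in each comparison of the edgeR fits. Klf4 lies at −1.67 for injury under the soy oil diet and at 1.97 for FOD-CCI against SOD-CCI, and all 9 members lie above 0 for injury under the fish oil diet.

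The test of the difference itself, the diet by injury interaction, gave 2 members at an unadjusted p of at most 0.05, against 5.01% of all genes. The effect of injury on Klf4 was higher under FOD by 2.36 on the log2 scale (SE 0.57, adjusted p = 0.894 by edgeR), and on Ier2 by 1.25 (SE 0.45, adjusted p = 0.894 by edgeR). The interaction was above 0 for 7 of 9 members. Without the 3 libraries with spinal cord transcripts it was above 0 for all 9, and Btg2 (1.76, SE 0.73) and Klf2 (1.69, SE 0.75) joined the other two, against 4.95% of all genes. With the replicate number as a block only Klf4 was left at an unadjusted p of at most 0.05 (1 in place of 2), and without SOD-CT replicate 2 Dusp1 and Btg2 joined Klf4 and Ier2 (4 in place of 2). DESeq2 gave no adjusted p for the interaction of Klf4. Marker lists moved as well: the interaction was above 0 for 6 of 6 red cell markers (median 6.73, all 6 at an unadjusted p of at most 0.05) and 9 of 9 macrophage markers (median 0.79), and below 0 for 11 of 12 neuron markers (median −0.26). None of these genes was called by edgeR, and their part in the interaction of the members was not tested.

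Between the injured groups, Klf4 differed the most of the 9 members, and Klf2 and Ier2 were also higher under fish oil. Klf4 was at 14.9 ± 5.59 CPM in FOD-CCI against 3.83 ± 1.03 in SOD-CCI, a log2 fold change of 1.97 (SE 0.42, adjusted p = 0.859 by edgeR). Klf2 was at 18.1 ± 4.27 against 7.96 ± 4.15 CPM (1.19, SE 0.52, adjusted p = 0.859 by edgeR), and Ier2 at 18.9 ± 4.03 against 11.3 ± 2.89 CPM (0.75, SE 0.32, adjusted p = 0.859 by edgeR). These 3 of 9 stood against 5.4% of all genes, and every FOD-CCI library lay above every SOD-CCI library for Klf2 and Klf4. The groups did not overlap, in either direction, for 14% of all genes. Klf4 was the only member left at an unadjusted p of at most 0.05 (1 in place of 3) with the replicate number as a block, with a gene length correction, and without SOD-CCI replicate 1 or FOD-CCI replicate 2, 3, or 4. In all, 8 of 9 members were higher in FOD-CCI, Nr4a1 being the exception at −0.07, with a median of 0.68 against 0.04 over all genes. Without the 3 libraries with spinal cord transcripts, Klf4 differed by 2.16 (SE 0.37, adjusted p = 0.801 by edgeR, from 0.0325 to 0.999 over 22 alternatives), the same 3 members were at an unadjusted p of at most 0.05 against 5.81% of all genes, and the groups did not overlap for 5 members (Egr1, Ier2, Btg2, Klf2, and Klf4), against 22.1%. This comparison shares the SOD-CCI libraries with injury under the soy oil diet, and the FOD-CCI libraries with injury under the fish oil diet. Red cell markers were higher for 6 of 6 genes (median 4.48), macrophage markers for 9 of 9 (median 0.82), and endothelial markers for 8 of 10 (median 0.47), none of them called, and their part was not tested by a model.

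Between the sham groups of the 2 diets, FOD-CT against SOD-CT, 0 members were at an unadjusted p of at most 0.05 by edgeR, against 3.39% of all genes, and all 9 overlapped between the groups, where 3.2% of all genes did not. Dusp1 had the smallest p (log2 fold change −0.78, SE 0.44, adjusted p = 0.965 by edgeR), followed by Ier2 (−0.50, SE 0.32, adjusted p = 0.965 by edgeR). Of the 9, 4 were higher under FOD, with a median of −0.40, and without FOD-CT replicate 1 and the library labelled FOD-CCI replicate 1 it was 2 of 9, with a median of −0.68 and again 0 at an unadjusted p of at most 0.05. Leaving out 1 library gave 1 member at that level without SOD-CT replicate 2 (Dusp1), FOD-CT replicate 2 (Nr4a1), or FOD-CT replicate 3 (Fos). The Dusp1 value rests on SOD-CT replicate 1, at 83.9 CPM: between 20.7 and 32.6 CPM in the other 3 SOD-CT libraries, Dusp1 met 15.3 to 28.1 CPM in FOD-CT.

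Left and contralateral DRG of one rat come from the same animal on the same diet, so the next comparison was made within rats, with the rat as a block. In the 3 SOD-CCI rats, Fos was at 11.9 and 3.47 CPM (left and right), at 12.6 and 5.61, and at 8.75 and 5.54. Left DRG were higher in all 3 rats for 4 of 9 members (Fos, Junb, Btg2, and Klf2), as for 19.8% of all genes. Junb was higher on the left by a log2 fold change of 0.88 (SE 0.21, adjusted p = 0.249 by edgeR), Klf2 by 1.32 (SE 0.33, adjusted p = 0.255 by edgeR), and Fos by 1.23 (SE 0.53, adjusted p = 0.570 by edgeR). These 3 stood against 8.48% of all genes, and without any one SOD-CCI rat 2 did, Junb and Klf2. Klf4, low on both sides, was higher on the left in 2 of the 3 rats. Without the FOD-CCI rat whose libraries stood apart, which shares the estimate of the spread, Junb (adjusted p = 0.0429) and Klf2 (adjusted p = 0.0784) were called by edgeR. Over 12 alternatives their adjusted p ran from 0.0429 to 1.00 and from 0.0373 to 1.00. Macrophage markers were higher on the left for 9 of 9 genes (median 2.31, 0 called), and their part was not tested.

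In the 3 FOD-CCI rats, Junb and Klf2 were higher on the left in all 3, as for 14.4% of all genes. Nr4a1 was lower on the left in all 3, and the share of all genes with that pattern is not given here. Junb was higher by 0.50 (SE 0.21, adjusted p = 0.706 by edgeR), and it was the only member at an unadjusted p of at most 0.05, against 6.96% of all genes. No member was (0 in place of 1) without any one of the other 5 rats. Nr4a1 differed by −0.31 (SE 0.21, adjusted p = 0.793 by edgeR). In the rat whose libraries stood apart, Fos was at 11.4 CPM on the left and 21.7 on the right, whereas it was at 10.7 and 2.63 in the second rat and at 21.5 and 9.40 in the third. Without that rat, 4 members were at an unadjusted p of at most 0.05 (Fos, Btg2, Junb, and Ier2), against 12.0% of all genes. Fos was then higher on the left by 1.55 (SE 0.43) and Btg2 by 1.24 (SE 0.36) in the 2 rats left, where with all 3 rats left DRG held more of both in 2 of 3. The side by diet interaction was below 0 for all 9 members with all rats, with 0 at an unadjusted p of at most 0.05 by edgeR against 2.91% of all genes. It was −0.98 for Klf2 (SE 0.45, adjusted p = 0.997 by edgeR) and −0.39 for Junb (SE 0.30, adjusted p = 0.997 by edgeR), and Klf2 alone was at that level without the third SOD-CCI rat (1 in place of 0). Without the FOD-CCI rat whose libraries stood apart, the interaction was below 0 for 5 of the 9. With all rats, this interaction was above 0 for 12 of 12 neuron markers (median 0.94) and below 0 for 5 of 5 fibroblast markers (median −1.78, 4 at an unadjusted p of at most 0.05) and 8 of 9 macrophage markers (median −1.71, 4 at that level). Between the sides of the FOD-CCI rats, fibroblast markers were lower on the left for 5 of 5 genes (median −1.01) and neuron markers higher for 10 of 12 (median 0.60). The part of these cell types in the members was not tested.

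**Figure D3:**
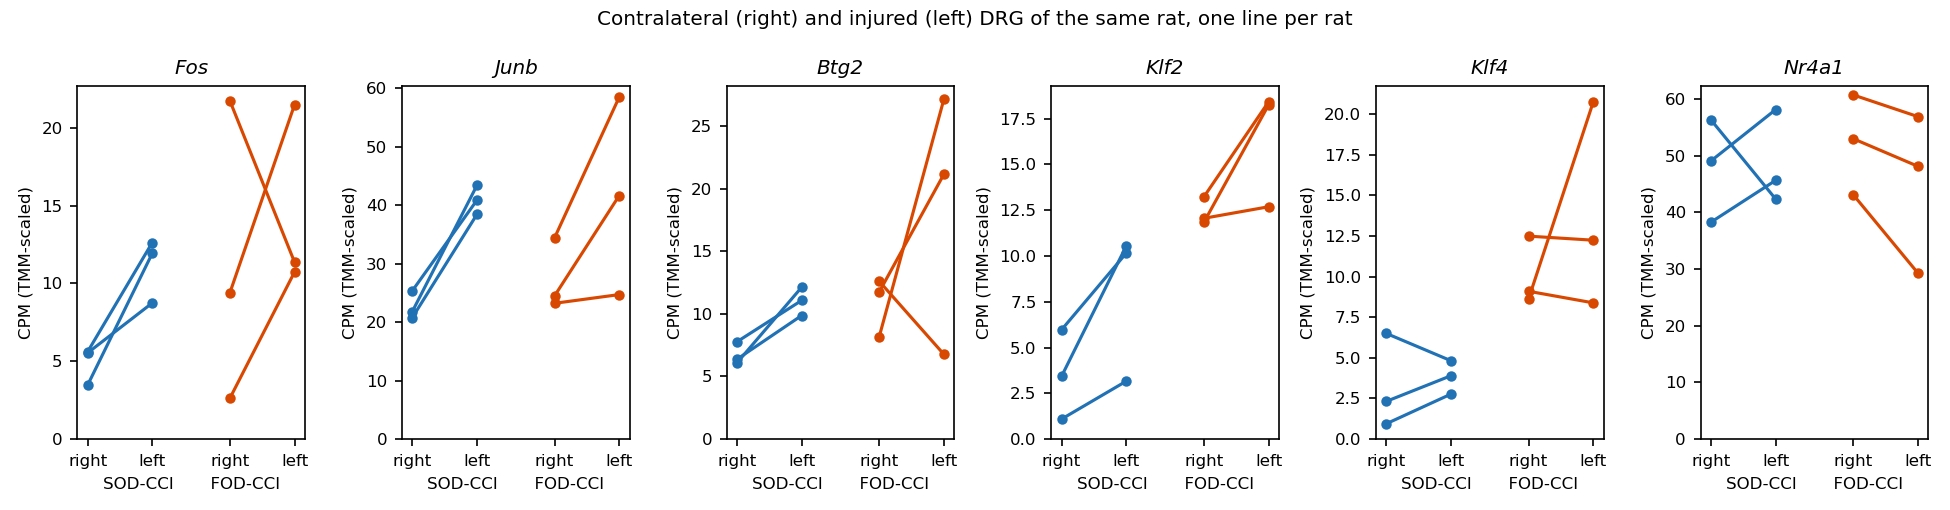
CPM of members in the left (injured side) and contralateral DRG of the 6 rats with both sides sequenced, with a line joining the DRG of 1 rat. For Junb all 6 lines are higher on the left, by 0.09 to 0.99 on the log2 scale, and for Fos 5 of 6 are.

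On the uninjured side, the Klf genes again separated the diets. Contralateral Klf2 was at 12.4 ± 0.746 CPM in FOD-CCI rats against 3.50 ± 2.44 in SOD-CCI rats (n = 3 each), a log2 fold change of 1.91 (SE 0.62, adjusted p = 0.697 by edgeR). Contralateral Klf4 was at 10.1 ± 2.11 against 3.25 ± 2.90 CPM (1.70, SE 0.61, adjusted p = 0.697 by edgeR). These 2 members stood against 7.10% of all genes, Klf4 was no longer one of them without contralateral SOD-CCI replicate 3 (1 in place of 2), and the groups did not overlap for 4 of 9 (Ier2, Btg2, Klf2, and Klf4, all higher under FOD), against 17.6% of all genes. All 9 members were higher in FOD-CCI rats, with a median of 0.77 against 0.04 over all genes. Without the libraries with spinal cord transcripts the same 2 members were at an unadjusted p of at most 0.05 (Klf2 at 1.92 with SE 0.65 and Klf4 at 1.76 with SE 0.67), against 5.51% of all genes, and the same 4 did not overlap, against 30.2%. Endothelial markers were higher for 10 of 10 genes (median 1.07), macrophage markers for 7 of 7 (median 1.52), and red cell markers for 6 of 6 (median 3.199), with 0 called. Their part in the Klf2 and Klf4 values was not tested by a model.

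Set against sham rats of the same diet, contralateral SOD-CCI DRG had lower Klf4 (log2 fold change −1.93, SE 0.59), Klf2 (−1.93, SE 0.60), Ier2 (−1.0, SE 0.35), and Btg2 (−1.25, SE 0.50), at an adjusted p of 0.70 for each by edgeR. These 4 of 9 stood against 7.06% of all genes, and 8 of 9 members were lower, with a median of −0.80. Ier2 and Klf4 did not overlap, as for 8.67% of all genes, and on CPM of the unscaled total it was Btg2 and Klf4. When SOD-CT replicate 1 with its muscle transcripts was left out, the 3 members Klf4, Klf2, and Ier2 were at an unadjusted p of at most 0.05, and without SOD-CT replicate 4 or contralateral SOD-CCI replicate 3 it was 2, Klf4 and Klf2. Endothelial markers were lower for 10 of 10 genes (median −0.81), macrophage markers for 7 of 7 (median −1.38), and red cell markers for 6 of 6 (median −3.78, all 6 at an unadjusted p of at most 0.05), and their part was not tested. Contralateral FOD-CCI against FOD-CT gave 0 members at an unadjusted p of at most 0.05 by edgeR, against 1.71% of all genes, and 0 without overlap, against 9.06%. The smallest p there belonged to Dusp1 (0.64, SE 0.49, adjusted p = 1.00 by edgeR) and Egr1 (0.57, SE 0.77, adjusted p = 1.00 by edgeR). Without the libraries with spinal cord transcripts Egr1 was higher by 1.47 (SE 0.79), and again 0 members were at an unadjusted p of at most 0.05, while without FOD-CT replicate 1 alone Egr1 was (1 member). The contralateral comparisons share their libraries, so the low contralateral SOD-CCI values of Klf2 and Klf4 enter both the comparison between diets and that with sham rats.

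Since Klf2 and Klf4 are known in endothelium and endothelial markers moved in the same direction in these comparisons, each library's Klf level was also taken relative to the mean of the 10 endothelial markers, a measure chosen after the data were seen. The log2 difference between FOD-CCI and SOD-CCI was 1.90 for Klf4 as measured and 1.48 relative to the markers, and 1.34 and 0.92 for Klf2. Between the contralateral groups it was 2.12 and 1.46 for Klf2, and 2.01 and 1.36 for Klf4. For SOD-CCI against SOD-CT it was −1.68 and −1.21 for Klf4, and −0.73 and −0.26 for Klf2. Between contralateral SOD-CCI and SOD-CT it was −2.29 and −1.60 for Klf4, and −2.03 and −1.34 for Klf2. Each of these differences kept its direction and was smaller relative to the markers, whereas FOD-CCI against FOD-CT differed more relative to them, by 0.70 and 0.96 for Klf4 and by 0.39 and 0.66 for Klf2. Relative to the markers, Klf4 ran from −2.30 to −1.99 in SOD-CCI, from −1.57 to 0.06 in FOD-CCI, and from −1.24 to −0.48 in SOD-CT, so SOD-CCI lay below both. With all libraries, the other separations between the diets did not hold relative to the markers. Klf2 reached up to −0.87 in SOD-CCI and down to −0.97 in FOD-CCI, and the contralateral groups overlapped for both Klf2 (up to −1.61 under SOD, down to −1.80 under FOD) and Klf4 (up to −1.40 and down to −2.20). Without FOD-CCI replicate 1, Klf2 reached down only to −0.27 in FOD-CCI, above every SOD-CCI library. Without contralateral FOD-CCI replicate 1, Klf2 reached down to −0.61 and Klf4 to −1.07 under FOD, above every contralateral SOD-CCI library. Both libraries left out here held spinal cord transcripts. How many other genes separate the groups relative to the markers was not computed. As measured and with every library kept, 14% of genes tested did not overlap between the injured diet groups. It was 17.6% between injury and sham under SOD, and 17.6% between the contralateral groups. Without the 3 libraries with spinal cord transcripts it was 22.1% between the injured diet groups and 30.2% between the contralateral groups. Known KLF2 targets of endothelium were higher for 8 of 9 genes in FOD-CCI against SOD-CCI (median 0.28), with S1pr1, a sphingosine phosphate receptor, at 2.79 (SE 0.99) and at 1.04 without the library labelled FOD-CCI replicate 1, Aqp1, a water channel, at 0.68 (SE 0.52), and Ptgds, a prostaglandin D synthase, at 0.53 (SE 1.26), and 0 called. Between the contralateral groups 8 of 9 were higher too (median 0.73, 0 called).

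**Figure D4:**
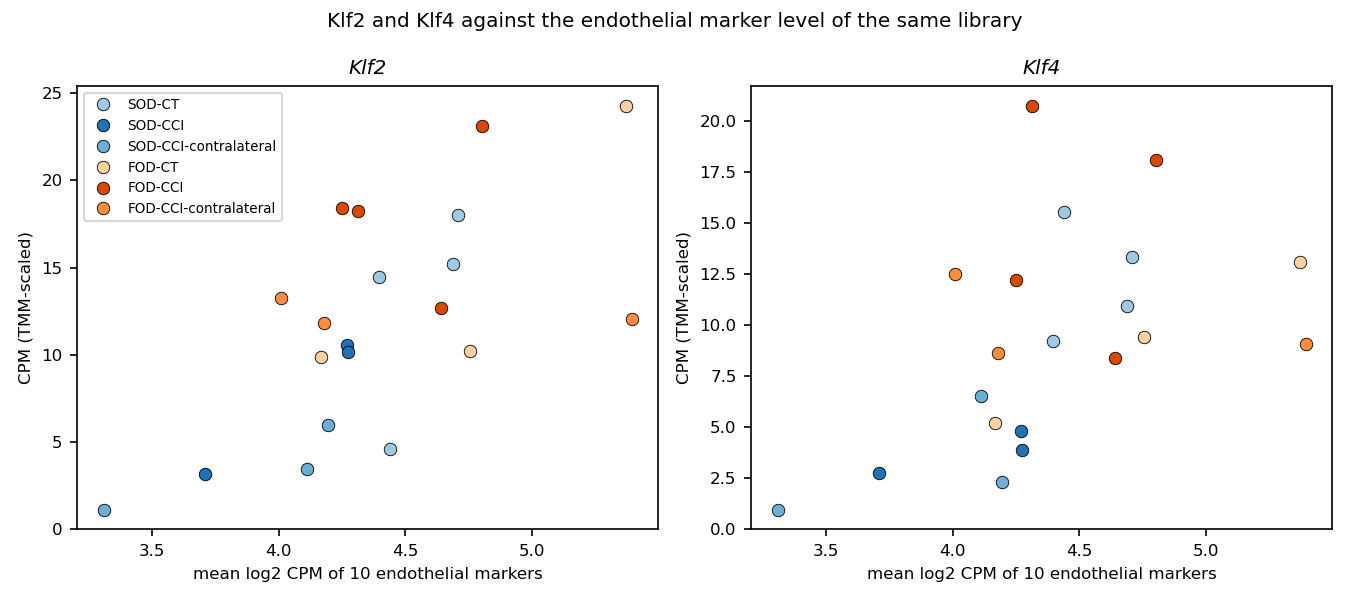
Klf2 and Klf4 in each library (vertical axes) against the mean of the 10 endothelial markers in that library (horizontal axes, log2 CPM), colored by group. The SOD-CCI libraries lie between 3.71 and 4.28 on the marker axis, at 2.77 to 4.82 CPM of Klf4. That range also holds FOD-CCI replicate 3 and 2 contralateral FOD-CCI libraries, and the SOD-CCI libraries lie lower in Klf4 than those 3. It holds as well FOD-CT replicate 2 (Klf4 at 5.196 CPM) and contralateral SOD-CCI replicates 2 (6.503 CPM) and 3 (2.32 CPM, below the SOD-CCI libraries).

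Whether the members varied together between rats of one group was asked by correlating each with Fos over the 14 left libraries after group means were removed. Of the 9 relations, 0 passed an adjusted p of 0.05 in the exact permutation test within groups (20736 permutations, two-sided). The strongest was with Dusp1 (Pearson r = 0.637, Spearman rho = 0.732, exact permutation p = 0.0254 and 0.0145, adjusted p = 0.228 and 0.130), and r was 0.677 without the 2 libraries farthest from the median of Fos, FOD-CT replicates 1 and 3. Egr1 had r = 0.511 with Fos (exact permutation p = 0.2495, adjusted p = 0.905), and 0.158 without those same 2 libraries. Single libraries decided this value. Without FOD-CT replicate 1 it was 0.148, and without SOD-CT replicate 1, where muscle markers were high, it was 0.843 (exact permutation p = 0.01485, adjusted p = 0.134), and then 0.798 when FOD-CT replicates 1 and 3 were left out too. Without SOD-CT replicate 1 and FOD-CT replicate 2, which had the most muscle counts, r was 0.913 (exact permutation adjusted p = 0.135). The other 7 had r from −0.114 to 0.303. Without FOD-CT replicate 1 and FOD-CCI replicate 1, which held spinal cord transcripts, 12 libraries were left, and 5 of the 9 relations were positive. Ier2 then had r = −0.635 (exact permutation p = 0.0179, adjusted p = 0.1615), Klf4 −0.473, Klf2 −0.427, Junb 0.527, and Dusp1 0.704. The median r was 0.0715, and again 0 relations passed an adjusted p of 0.05. FOD-CT and FOD-CCI libraries of the same number deviated together, and those numbered 1 held spinal cord transcripts. For this reason r was also taken after removing the replicate number as a block, for which no exact test was run. It was then 0.729 for Junb, the highest of the 9 relations, and 0.428 for Klf2. In data made with a true r of about 0.862, this test recovered 71.0% of relations, so a weaker relation could be missed at this number of rats. The median r with Fos was 0.131 over the 9 members and −0.02 over all other genes, 4.81% of which were above 0.5.

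Over all 45 pairs of members, r was positive for 28 and ran from −0.491 to 0.805, with a median of 0.131 and 9 pairs above 0.5. These values are a description of 14 libraries that share depth and scaling. The same shares over pairs of other genes were not computed, here or for the 20 libraries below. Whether the members pair more often than other genes is therefore not shown. The highest pairs were Ier2 with Klf2 (0.805), Nr4a1 with Btg2 (0.684), Fos with Dusp1 (0.637), Ier2 with Klf4 (0.634), and Dusp1 with Btg2 (0.624). Fosb, near the limit of detection, gave the lowest pairs, with Btg2 (−0.491) and Dusp1 (−0.418). Over all 20 libraries, in which 6 rats enter with both sides, 32 pairs were positive, the median was 0.184, and 2 pairs were above 0.5, Dusp1 with Btg2 (0.631) and Nr4a1 with Btg2 (0.603).

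**Figure D5:**
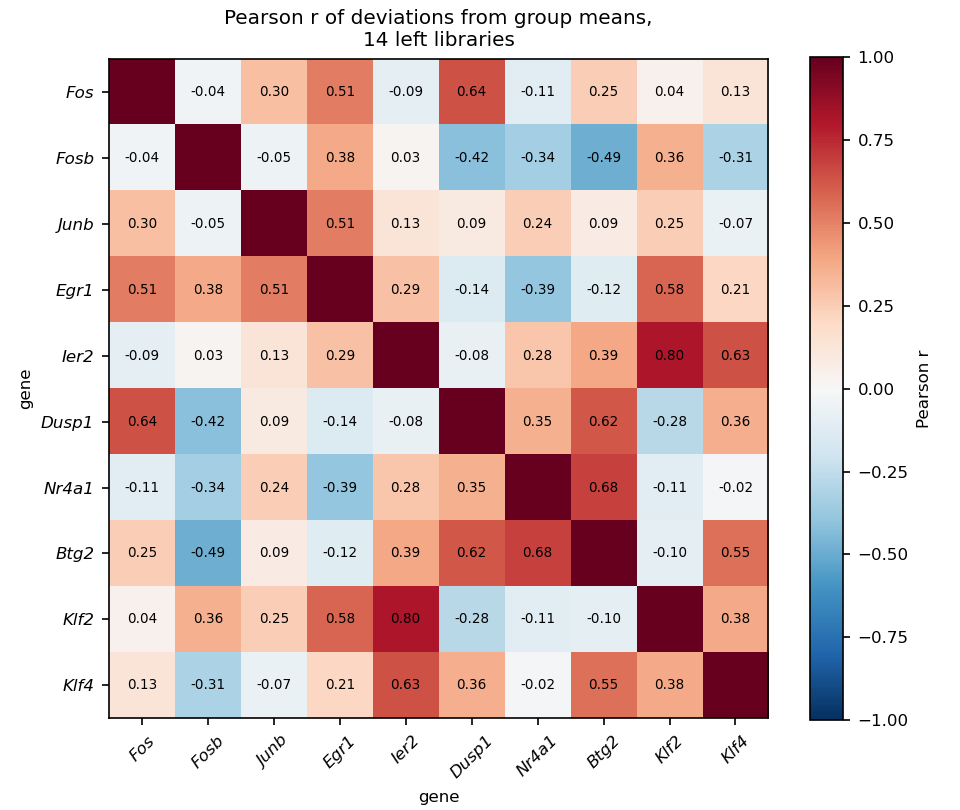
Pearson r of each pair of the 10 members over the 14 left libraries, after removing group means from log2 CPM, as a colored grid with the value in each cell. Most cells are weak (median 0.131 over 45 pairs), and Ier2 with Klf2 is the highest at 0.805.

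Outside the members, the genes most like their mean standardized deviation over the 20 libraries were ranked among 14410 genes, which had a median r of −0.01. The 12 highest ran from 0.817 to 0.726. They included Zfp36l1 (0.788) and Zfp36 (0.739), RNA-binding proteins that speed mRNA decay, Nfkbia (0.788), the inhibitor of NF-kappaB, and Laptm5 (0.817), a lysosomal protein of blood cells. Bin2 (0.775), Fgd2 (0.774), Gna15 (0.738), and Plek (0.732), known from blood cells, were also among them, with Cd3eap (0.744), Dvl2 (0.743), Cytl1 (0.727), and Cnksr3 (0.726). By list, the median r was 0.29 for the other immediate early transcription factors (15 genes) and 0.17 for the signalling genes (27). It was 0.22 for other Klf genes (12) and −0.04 for other MAP kinase phosphatases (9). Cell type markers gave 0.45 for fibroblasts (5), 0.43 for red cells (6), 0.38 for Schwann cells (8), and 0.34 for endothelium (10). They gave 0.29 for macrophages (9), 0.28 for mural cells (8), 0.23 for skeletal muscle (5), and 0.09 for spinal cord (3). The lowest marker lists were satellite glia at 0.03 (6) and neurons at −0.33 (12). Upstream kinases and factors were at 0.05 (23), KLF2 targets at 0.04 (9), and heat shock genes at −0.30 (11).

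The wider immediate early program was read from lists of other transcription factors (15 of 18 tested), signalling genes (27), MAP kinase phosphatases (9 of 10), and Klf genes (12 of 15 in the left fit). In left against contralateral DRG of SOD-CCI rats, 14 of 15 transcription factors were higher, with a median of 0.57, and 6 of them were at an unadjusted p of at most 0.05. Jun, the AP-1 partner of Fos, rose there by 1.88 (SE 0.25, adjusted p = 0.0538 by edgeR). It was the only gene of these lists called in any comparison by edgeR with all libraries. That call was lost without any one of the 3 SOD-CCI rats (adjusted p from 0.429 to 0.803 by edgeR). Atf3, a stress-induced bZIP factor, was higher by 4.96 (SE 1.06) and Csrnp1, a nuclear factor induced by axin, by 2.07 (SE 0.50). Of the 27 signalling genes 23 were higher, with a median of 0.34 and 0 called, led by Socs3, an inhibitor of cytokine signalling, at 2.63 (SE 0.47), Gadd45g, a stress sensor, at 2.52 (SE 0.50), and Ier5 at 1.07 (SE 0.40). Among the phosphatases 7 of 9 were higher, with Dusp5 at −1.92 (SE 0.49), Dusp7 at 0.65 (SE 0.23), and Dusp14 at −0.62 (SE 0.38). Of 12 alternatives, Socs3 and Gadd45g were each called in 5, Atf3 in 4, and Csrnp1 and Dusp5 each in 3.

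In SOD-CCI against SOD-CT, 11 of 15 transcription factors were higher (median 0.14, 0 called), with Atf3 at 3.18 (SE 0.95), Cebpb, a bZIP factor of acute inflammation, at −2.83 (SE 1.03), and Jun at 1.45 (SE 0.40). Of the signalling genes 16 of 27 were higher (median 0.09, 0 called), with Socs3 at 2.44 (SE 0.61), Ccn2, a matrix protein listed under its older symbol, at −2.26 (SE 0.64), and Tob1, a relative of Btg2, at −1.39 (SE 0.64). Among 12 other Klf genes 6 were higher (median 0.04, 0 called), with Klf15 at −1.39 (SE 0.38), Klf7 at 1.17 (SE 0.58), and Klf1, the erythroid factor, at −2.39 (SE 1.54). Some of these values rest on 1 or 2 libraries. When SOD-CT replicate 1 and FOD-CT replicate 2 were left out, Cebpb was at −0.89 and Tob1 at −0.06, and without SOD-CT replicate 4 Klf1 was at −0.37. In FOD-CCI against FOD-CT, 13 of 15 transcription factors were higher (median 0.70, 0 called), with Atf3 at 3.35 (SE 1.04), Jun at 1.57 (SE 0.42), and Myc at 1.18 (SE 0.45). Without the library labelled FOD-CCI replicate 1, Atf3 (3.76), Jun (1.86), and Socs3 (2.74) were each called there at adjusted p = 0.0490 by edgeR, with adjusted p up to 1.00 over 22 alternatives.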

How the data were processed

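The 20 libraries were placed in groups by the sample labels, and every column of both deposited tables matched 1 library. According to the labels and the study's methods, fastp was used for trimming, HISAT2 for alignment, and featureCounts 1.5.0-p3 for counting on poly-A selected RNA. The deposited counts are whole numbers per gene, neither pooled nor scaled by the authors. The genome build and the strand setting are not given in the sources used here, so reads of a member and of an overlapping antisense gene may not be told apart. The deposited FPKM came from the same counts: the authors divided by gene length and by a DESeq2 size factor times the geometric mean of the totals, which returned the values in all 20 libraries.

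Tests were run here on the counts in R 4.3.3 with edgeR 4.0.16 (limma 3.58.1), and DESeq2 1.42.0 was an alternative. A gene was kept when 90% of the libraries of a fit reached 10 counts. After TMM scaling, the quasi-likelihood F test (two-sided) was applied in 3 fits: 14 left libraries (14484 genes), 12 libraries of 6 rats with the rat as a block (14549 genes), and 13 sham and contralateral libraries (14007 genes), with Benjamini–Hochberg adjustment over all genes of a fit. Log2 CPM used a prior count of 1. Correlations, permutations, and plots were made in Python 3.11.15 (numpy 2.4.6, pandas 2.3.3, scipy 1.17.1, matplotlib 3.10.9). Fits and permutation test were tested on simulated data. Limits for 0 counts stand for 3 counts and cover counting error only. No pair of replicates agreed within sampling noise (chi-square per gene at least 25.6).

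The members and gene lists were chosen with earlier results of these data known. Values are given in every library for the members, and fold changes for those at an unadjusted p of at most 0.05 or, where fewer than 2 were, for the 2 of smallest p; values of other members were added after they were seen. From other lists, called genes and up to 3 of the leading changes are named, and the 12 genes most like the members. Of the lists, 0 genes other than Jun were called in any comparison by edgeR with all libraries, including the lists of mural cell, satellite glia, Schwann cell, neuron, fibroblast, heat shock, and upstream kinase genes.

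Deviations from group means correlated between the DRG of a rat (r from 0.114 to 0.430). Libraries of FOD-CT and FOD-CCI with the same number came from different rats and also deviated together (0.429, 0.238, and 0.192), as did FOD-CT and contralateral FOD-CCI (0.570, 0.185, and 0.221). Those of SOD-CT and SOD-CCI did not (0.0686, 0.0768, and −0.0761). The values of 0.429 and 0.570 were between libraries numbered 1, all of which held spinal cord transcripts. The part of these transcripts in the shared deviations was not tested. Alternatives were DESeq2, its size factors in edgeR, no filter, a gene length correction, the replicate number as a block (or no block for the rat), only the groups compared, and leaving out each library or those with spinal cord or skeletal muscle transcripts.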

Additional observations from a re-analysis of the deposited data

Results flagged for a closer look

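In SOD-CT replicate 1, Klf2 was at 4.60 CPM, far below the other SOD-CT libraries at 14.4, 15.2, and 18.03 CPM. Its gap to the nearest of them was 0.837 of the range of the group, above Dixon's critical value for 4 samples. Of 20 groups of 4 libraries tested for the members, 1 had such a value, and chance flags about 1 in 20 groups. The same library had 10.8% of its counts from skeletal muscle markers and the highest Dusp1 of the 20 libraries (83.9 CPM), and the part of the muscle transcripts in its Klf2 was not tested.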

How the results depend on the processing

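With edgeR and all libraries, 0 members were called in each comparison. DESeq2 called 1 member in SOD-CCI against SOD-CT (Klf4, adjusted p = 0.0166), 1 in FOD-CCI against SOD-CCI (Klf4, adjusted p = 0.0325), and 2 in left against contralateral DRG of SOD-CCI rats (Junb and Klf2). Leaving out libraries with spinal cord transcripts gave 1 call in SOD-CCI against SOD-CT (Klf4, adjusted p = 0.0944) and 2 in SOD-CCI left against contralateral (Junb and Klf2, adjusted p = 0.0429 and 0.0784). Leaving out each library in turn gave from 0 to 2 members called in that comparison, 2 only without FOD-CCI replicate 1. The cause was not tested. The other 219 recomputed counts of members called, or of relations with Fos, did not differ from those reported.

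With the replicate number as a block, 0 members were called in each of the 8 comparisons of groups, so the block changed no other call. Ier2 in FOD-CCI against FOD-CT was no longer at an unadjusted p of at most 0.05 (0 members against 1), nor were Klf2 and Ier2 in FOD-CCI against SOD-CCI (1 against 3), Ier2 in the diet by injury interaction (1 against 2), and Btg2 in contralateral SOD-CCI against SOD-CT (3 against 4), while contralateral FOD-CCI against contralateral SOD-CCI gained Ier2 (3 against 2). Under the block Ptgds in FOD-CCI against SOD-CCI turned from 0.53 to −1.03. Leaving out each library in turn moved it to values from −1.40 (without FOD-CCI replicate 4) to 0.90. Klf4 in SOD-CCI against SOD-CT was −1.21 relative to the endothelial markers and −1.68 as measured, an alternative chosen after seeing the data. Among single genes, 57 values passed the threshold under an alternative where they had not with all libraries, 4 no longer passed, all of them Jun in left against contralateral DRG of SOD-CCI rats, and 1287 did neither. Over all genes, DESeq2 called 594 in SOD-CCI against SOD-CT, 472 in SOD-CCI left against contralateral, and 264 in FOD-CCI left against contralateral, where edgeR called 0, 19, and 2. In the other comparisons edgeR called 0, and DESeq2 called 21 in FOD-CCI against FOD-CT, 2 in FOD-CCI against SOD-CCI, 42 and 60 for the interactions of diet with injury and with side, 58 between the contralateral groups, 52 in contralateral SOD-CCI against SOD-CT, and 0 in the other 2. Without FOD-CCI replicate 1, and in the fit of sides without both libraries of that rat, edgeR called 47 and 43 genes for injury under SOD and FOD, and 471 and 137 for the sides, the highest counts of all libraries left out in turn. Without SOD-CCI replicate 1 or 2 it called 0 genes for the sides under SOD. No library of the within-rat comparison was left out for muscle transcripts. Depth limits only Fosb, which did not pass the filter on low counts.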
